A study of Mus musculus with 14 samples.

Results

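PRDM16 ChIP-seq regions with the higher value in the left ventricle (LV) than in the right ventricle (RV) of the mouse heart numbered 512, of 17587 regions in all and of 9209 that reached the minimum mean. They were chosen by their LV and RV values. The mean of LV and RV had to be at least 8 normalized reads, log2 LV over RV at least 0.81 (LV to RV as 7 to 4, called the set ratio below), and no base could overlap a peak of the Prdm16 conditional knockout. Both values are therefore a description of the LV-higher regions, and no test of them supports anything here. The same rule with RV over LV gave 462 RV-higher regions, which serve with the 8697 other regions of the same minimum mean as the comparison. These 8697 include the RV-higher regions and 189 regions that overlap a knockout peak.

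PRDM16 is a zinc-finger protein with a PR domain that binds DNA itself and through partners, and recruits corepressors and coactivators. It is best known for brown fat identity and, in the heart, for the compact outer layer of the ventricular wall. The LV and RV arise from different progenitors, and transcription factors such as Tbx5 and Hand1 mark the LV. ChIP-seq enriches the DNA bound by a protein with an antibody and counts the fragments by sequencing.

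All samples were ventricles of C57BL/6 mouse embryos at stage E13.5, with the atria removed. PRDM16 ChIP was done on LV (2 libraries) and RV (2 libraries), each a pool of 10 to 12 ventricles labelled WT and Mock. It was also done on whole ventricles of the conditional knockout (1 library) and of WT (2 libraries), each a pool of 3 hearts, and 7 input libraries bring the series to 14 samples. The allele and the Cre driver of the knockout are not given in the sources used here, and its peak list of 330 peaks serves only to remove regions. The files give no expression values, so the dissection could not be set against chamber markers. In pooled tissue, more cells with PRDM16 on a region and more PRDM16 per cell cannot be told apart.

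The LV and RV columns are means of 2 libraries, from which the whole reads of each library could be worked out, and the libraries are called A and B because the columns carry no replicate number. Summed over all regions, LV libraries A and B had 330443 and 184244 reads, against 281797 and 267808 for RV libraries A and B. A read stood for 0.744 and 1.47 normalized reads in LV and for 0.866 and 0.965 in RV. The median over LV-higher regions was 18.5 reads in LV library A and 11 in LV library B, against 8 in RV library A and 7 in RV library B. Over all 4 libraries an LV-higher region held 27 to 950 reads, with a median of 42, which bounds how well a single region can be measured.

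Promoter sequence was at hand for some regions, and 29 of 499 LV-higher regions on chromosomes of the promoter table lay over a promoter window (250 bases before to 50 after a gene start). The stretches below are the bases before the start that the region covers, from RefSeq (GRCm38.p6), 5′ to 3′ on the strand of the gene. Nkx2-5, Mycn, Myl4 and Smad5 belong to the heart and signalling lists. They are Nkx2-5 (homeobox factor of heart muscle, chr17:26841566-26841798, minus strand), Mycn (proliferation factor of the compact layer, chr12:12941837-12942074, minus), Myl4 (atrial myosin light chain, chr11:104550413-104550528, plus) and Smad5 (BMP signal transducer, chr13:56703418-56703667, plus). Gja1 (a gap junction connexin, chr10:56377050-56377170, plus) and Ctbp1 (a corepressor that binds PRDM16, chr5:33275028-33275254, minus) were chosen after their values were seen. Capitals mark matches, on either strand, of the 5 short strings described after the values.
Nkx2-5: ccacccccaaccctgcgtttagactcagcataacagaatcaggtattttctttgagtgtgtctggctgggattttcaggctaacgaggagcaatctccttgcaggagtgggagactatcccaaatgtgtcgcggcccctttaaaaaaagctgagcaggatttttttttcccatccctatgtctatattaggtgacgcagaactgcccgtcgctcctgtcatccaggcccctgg
Mycn: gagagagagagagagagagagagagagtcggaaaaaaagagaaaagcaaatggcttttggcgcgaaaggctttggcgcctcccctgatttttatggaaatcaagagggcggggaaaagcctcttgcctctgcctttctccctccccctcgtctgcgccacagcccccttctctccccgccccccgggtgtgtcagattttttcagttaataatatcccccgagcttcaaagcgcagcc
Gja1: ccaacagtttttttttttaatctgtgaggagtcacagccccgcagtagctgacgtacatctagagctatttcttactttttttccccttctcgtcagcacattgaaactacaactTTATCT
Myl4: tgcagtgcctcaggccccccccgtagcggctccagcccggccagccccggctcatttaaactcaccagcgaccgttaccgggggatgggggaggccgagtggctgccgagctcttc
Smad5: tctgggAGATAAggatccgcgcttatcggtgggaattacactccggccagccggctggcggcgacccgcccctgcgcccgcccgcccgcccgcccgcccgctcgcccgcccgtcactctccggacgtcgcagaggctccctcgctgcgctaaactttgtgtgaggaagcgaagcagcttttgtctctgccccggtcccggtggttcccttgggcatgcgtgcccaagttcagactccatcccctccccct
Ctbp1: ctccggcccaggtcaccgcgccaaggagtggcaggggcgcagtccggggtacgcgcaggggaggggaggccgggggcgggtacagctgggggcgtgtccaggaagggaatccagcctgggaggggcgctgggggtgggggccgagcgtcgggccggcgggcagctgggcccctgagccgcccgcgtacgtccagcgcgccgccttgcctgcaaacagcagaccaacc

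The region over the Nkx2-5 promoter, 26841431 to 26841798 of chromosome 17, had 26.1 and 23.4 normalized reads in LV libraries A and B, against 11.3 and 11.6 in RV libraries A and B. Both LV libraries lay above both RV libraries, and its summit was 43 bases before the start. A second LV-higher region 20018 bases before that start had 10.4 and 13.2 in LV against 4.33 and 2.89 in RV. Nkx2-5 was the nearest gene of 8 regions of sufficient mean, and only these 2 passed the set ratio. Smad5 had 8.93 and 13.2 normalized reads in LV against 6.93 and 3.86 in RV, and Gja1 had 10.4 and 19.0 against 6.93 and 3.86. At Myl4 the values were 17.1 and 14.7 in LV against 4.33 and 11.6 in RV, and at Ctbp1 17.9 and 11.7 against 8.66 and 6.75. At each of these 4 promoters both LV libraries lay above both RV libraries. This held in 91.8% of LV-higher regions, which were chosen by these values, and in 18.3% of all regions of the minimum mean. Of the 4, only Gja1 kept the set ratio without each library in turn.

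Among the 39 promoter windows that LV-higher regions touch, AGATAA, read by GATA factors, stood in 3 (7.69%), against 6.62% of the 1480 windows touched by other regions and 9.99% of all 32851 windows. AGGTGT, read by T-box factors, stood in 3 (7.69%, against 7.84% and 11.8%) and GGAATG, read by TEAD factors, in 5 (12.8%, against 13.6% and 12.6%). CATCTG, a bHLH letter string, stood in 5 (12.8%, against 10.4% and 14.4%), and CACGTG, another, in 3 (7.69%, against 8.58% and 6.02%). Both strands of the 250 bases before the start were searched, also where the region covers few or none of them, and none of the strings contains another. Median GC content was 62.8% in the LV-higher windows, 60.8% in RV-higher, 62.4% in other and 52.4% in all windows. The 39 windows belong to 35 genes, and some are overlapping windows of the same gene. The GGAATG of Abracl and the CATCTG of Gm30713 are each counted again in an overlapping window. With 39 windows these shares are a description.

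The Mycn promoter was the deepest LV-higher region and the one in which the libraries of a ventricle parted most. LV library A had 604 normalized reads (812 reads) and LV library B 36.6 (25 reads), against 29.4 and 76.2 in RV libraries A and B. LV library A alone stood high, and LV library B lay between the RV libraries. Log2 LV over RV was 2.59, but -0.52 without LV library A.

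The 10 regions of largest LV over RV lay at genes of very different kinds, Mycn among them. The largest was at Cxcl12, a chemokine that guides cell migration and vessel growth. Cxcl12 was the nearest gene of this region (chromosome 6, 117275855 to 117276168), 94572 bp off. It held 34.2 and 11.7 normalized reads in LV against 0.866 and 0 in RV, and LV over RV of the deposited columns, which include the added 0.5, was 25.2. From the reads alone, 54 against 1, the ratio scaled by library factors was 58.4, with an exact 95% counting interval of 10.0 to 2349. Another LV-higher region followed at 117279703 to 117280444, with 54.3 and 39.6 in LV against 26.8 and 21.2 in RV. Of 8 regions of sufficient mean nearest to Cxcl12, 2 were LV-higher and 1 was RV-higher.

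Ptprn2, a protein of secretory granules, had 46.9 and 46.9 normalized reads in LV against 6.93 and 8.68 in RV (chromosome 12, 116776410 to 116776947, inside the gene). St18, a zinc-finger factor, had 33.5 and 32.2 in LV against 6.93 and 7.72 in RV, inside the gene on chromosome 1 at 6805028 to 6805653. At both regions the libraries of a ventricle lay close together and the ventricles did not overlap. Tenm4, a cell surface protein of neurons, held the widest LV-higher region (1469 bp), with 141 and 130 in LV against 45.9 and 44.4 in RV. Shallower regions among the 10 largest ratios lay inside Sv2c, a synaptic vesicle protein (ratio 4.31), Cul4a, a ubiquitin ligase scaffold (4.05), and Slc20a2, a phosphate transporter (3.997).

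**Figure D1:**
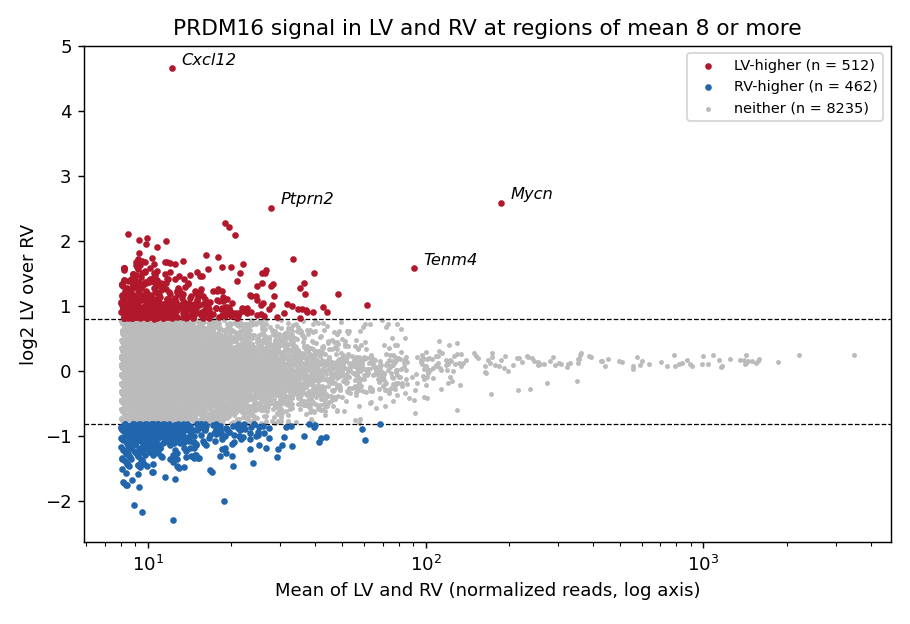
Log2 LV over RV (vertical axis) against the mean of LV and RV in normalized reads (horizontal log axis) for the 9209 regions of mean 8 or more; dashed lines mark the set ratio either way. The 512 LV-higher (red) and 462 RV-higher (blue) regions crowd at low means, and Cxcl12, Mycn, Ptprn2 and Tenm4 stand away from the rest.

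Transcription factors of the left ventricle and of heart muscle held some of these regions. Tbx5, a T-box factor required for LV growth, had 37.2 and 24.9 normalized reads in LV against 4.33 and 7.72 in RV at one end of the gene (chromosome 5, 119796420 to 119796866). A second LV-higher region inside Tbx5, at 119862531 to 119862798, had 4.47 and 16.1 in LV against 6.06 and 4.82 in RV. There LV library A lay below both RV libraries, and log2 LV over RV was -0.26 without LV library B. Hand1, a bHLH factor of the LV, had 26.8 and 36.6 in LV against 5.20 and 7.72 in RV, 15574 bp from the gene on chromosome 11 at 57847449 to 57848017. Of the 3 Tbx5 regions of sufficient mean 2 were LV-higher, and the Hand1 region was the only one nearest to that gene.

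Iroquois homeobox factors pattern the ventricles and the conduction system, and a single region nearest to each of Irx2, Irx4 and Irx3 was LV-higher. Irx1 and Irx5, also in the cardiac factor list, had no LV-higher region. Irx2 belongs to the right ventricle and outflow list as well. The LV-higher region nearest to Irx2 lay 204784 bp away on chromosome 13 at 72419355 to 72420035. It had 40.2 and 39.6 normalized reads in LV against 17.3 and 13.51 in RV. Irx4, a factor of ventricular muscle, had 16.4 and 19.0 in LV against 9.53 and 4.82 in RV, 178302 bp from the gene. Irx3, active in trabecular muscle, had 15.6 and 13.2 in LV against 8.66 and 5.79 in RV. In these 3 regions both LV libraries lay above both RV libraries, as in 91.8% of LV-higher and 18.3% of all regions of the minimum mean. Irx3 did not keep the set ratio without RV library B (log2 LV over RV 0.70).

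Regulators of the compact layer and of muscle growth included Casz1, a zinc-finger factor, with 26.8 and 24.9 normalized reads in LV against 13.9 and 9.65 in RV. Tead1, the partner of YAP, had 9.68 and 16.1 in LV against 10.4 and 2.89 in RV, so that the ventricles overlapped. Igf1r, the receptor of insulin-like growth factors, had 12.7 and 17.6 in LV against 9.53 and 6.75 in RV. One region inside Prdm16 itself had 7.44 and 13.2 in LV against 5.20 and 5.79 in RV, without overlap. Among other heart factors, Prox1 was nearest to 2 LV-higher regions, 1 at 55938 bp from the gene (ratio 2.03) and 1 inside it (2.52). Tbx18 (1.91) was nearest to 1 at 94375 bp, and Mef2c (1.76) to 1 at 392338 bp. Neither of these kept the set ratio without each library in turn.

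**Figure D2:**
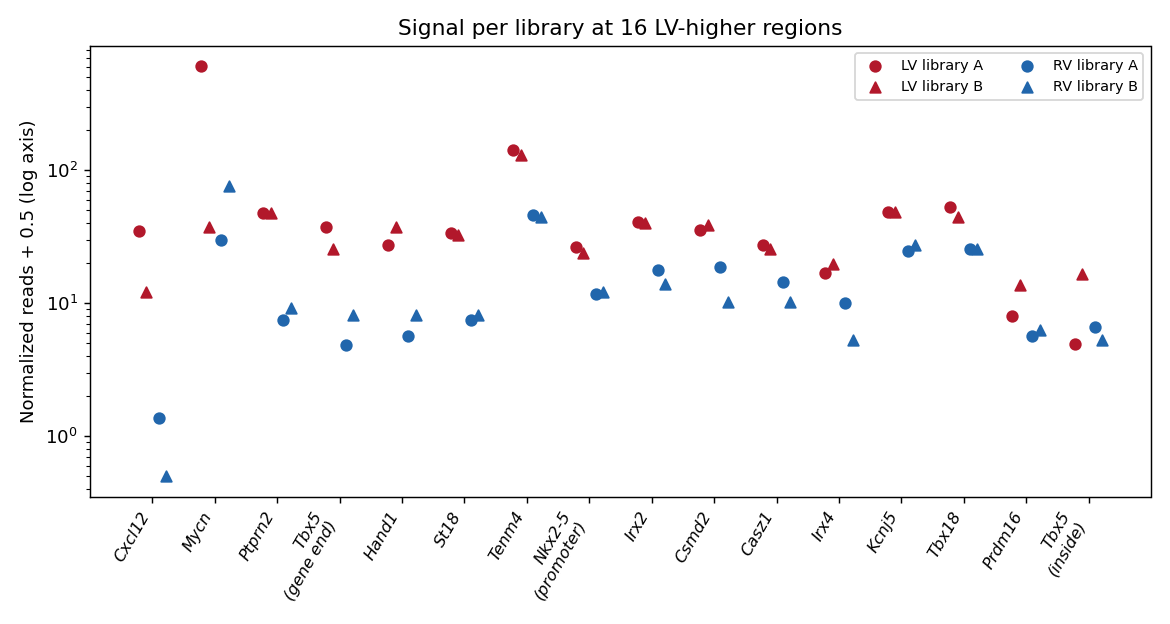
Normalized reads plus 0.5 (vertical log axis) in LV libraries A and B (red) and RV libraries A and B (blue) at 16 LV-higher regions, named by nearest gene. At Mycn LV library B lies between the RV libraries (36.6 against 29.4 and 76.2), and at the region inside Tbx5 LV library A is the lowest point (4.47).

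Read over whole gene lists, LV-higher regions made up 5.56% of the 9209 regions of sufficient mean. They were 4 of 23 regions in the left ventricle list (17.4%), where 19 of 23 had the higher value in LV and 0 were RV-higher. Over all 9209 regions 4724 (51.3%) had the higher value in LV. They were 14 of 147 in the list of cardiac transcription factors (9.52%, with 9 RV-higher), 7 of 71 in the compact myocardium (9.86%, with 5) and 3 of 35 in the right ventricle and outflow list (8.57%, with 3). Trabecular genes had 2 of 39 (5.13%, with 0), at Irx3 and Cpne5, although 28 of their 39 regions had the higher value in LV. Lists go by nearest gene, and the region over the promoter of Myl4, a trabecular and sarcomere list gene, was assigned to another gene. It counts in neither list. Median log2 LV over RV was 0.20 in the left ventricle list and 0.24 in the trabecular list, against 0.01 over all 9209 regions. In the cardiac factor list it was -0.02, with 70 of 147 regions higher in LV. In the compact list it was 0.04 (38 of 71), and in the right ventricle and outflow list 0.009 (18 of 35). The left ventricle and trabecular lists both hold Nppa, Gja5, Bmp10, Cited1 and Smpx, so some regions count in both and they are not separate observations. LV-higher regions are shared too. Those of Hand1 and Tbx5 count in the left ventricle and cardiac factor lists, and that of Prdm16 in the left ventricle and compact lists. Nkx2-5 and Tead1 count in the compact and factor lists, and Irx2 and Mef2c in the right ventricle and factor lists. The shares of these lists are thus not separate either. The left ventricle list kept 4 of its 4 regions past the ratio without LV library A, 2 without LV library B, 3 without RV library A and 3 without RV library B. The compact myocardium list kept 4 of its 7 without LV library B, and Mycn is among those 7. The lists were drawn up with earlier results of these data known, so the counts are a description.

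Contractile and excitation genes held LV-higher regions at a share close to or below the 5.56% of all regions. The sarcomere and Z-disc list had 5 of 91 (5.49%, with 2 RV-higher), among them Nebl (ratio 2.11), a thin filament protein, Synpo2l (1.96) and Ldb3 (2.67), proteins of the Z-disc. Of these 5, 3 kept the set ratio without LV library A and 2 without LV library B. The region over the Myl4 promoter has another nearest gene and is not among them. Synpo2l had 16.4 and 5.86 normalized reads in LV against 6.06 and 4.82 in RV, with overlap, and log2 LV over RV was 0.098 without LV library A. Ldb3 had 7.44 and 30.8 normalized reads in LV against 6.93 and 6.75 in RV, with LV library A close to both RV libraries. Flnc, an actin crosslinker, had 17.1 and 61.5 in LV against 8.66 and 17.4 in RV, and its LV library A overlapped RV. Calcium handling and ion channel genes had 3 of 72 (4.17%, with 2 RV-higher), at Kcnq1, a potassium channel (2.24), Ryr2, the calcium release channel (2.90), and Cacna1c, a calcium channel (1.82). At Ryr2 the values were 13.4 and 17.6 in LV against 5.20 and 4.82 in RV, without overlap.

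Signalling lists held LV-higher regions at shares of 5.88% to 8.16%, beside 5.56% of all regions. TGF-beta and BMP signalling had 4 of 66 (6.06%, with 3 RV-higher), among them Smad6, an inhibitory Smad (ratio 2.28), Nog, a BMP antagonist (2.097), and Id3, a BMP target (1.80). Of these 4, 1 kept the set ratio without LV library B and 2 without RV library B. Nog had 11.2 and 17.6 normalized reads in LV against 11.3 and 1.93 in RV, with overlap, and log2 LV over RV was 0.34 without RV library B. Notch signalling had 2 of 34 (5.88%, with 4), at the coactivators Maml3 (2.18) and Maml2 (1.76), and Wnt signalling 2 of 33 (6.06%, with 3), at Wnt11 (1.94) and Dact1 (2.09). The Dact1 region lay 167747 bp from the gene. Notch kept 1 of 2 without LV library B or RV library B, and Wnt 1 of 2 without RV library A. Chemokines, growth factors and receptors had 4 of 49 (8.16%, with 3 RV-higher), with the 2 of Cxcl12, Igf1r and Fgf9 (2.11). The region nearest to Fgf9, a growth factor for ventricular muscle, lay 495155 bp from the gene. Of these 4, 1 kept the set ratio without RV library B. Neuronal and adhesion genes had 4 of 54 (7.41%), at Ptprn2, Tenm4, Csmd2 (2.57) and Negr1, with 5 RV-higher. In that list 23 of 54 regions had the higher value in LV, with a median log2 LV over RV of -0.12. Endothelial genes had 1 of 13, at Erg (1.95), epicardial, fibroblast and smooth muscle genes 1 of 15, at Tbx18, and fatty acid oxidation genes 1 of 34, at Esrrg (1.91). None of these 3 kept the set ratio without each library in turn. Hepatocyte genes had 0 regions of sufficient mean.

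Most LV-higher regions were the only LV-higher region of their gene. The nearest protein-coding genes numbered 485, of which 26 had 2 or more LV-higher regions and 1 had 3, and the 462 RV-higher regions had 429 nearest genes, of which 30 had 2 or more. Plxna2, a semaphorin receptor, had 3 of its 5 regions LV-higher, with ratios of 1.85, 1.77 and 2.21. Of these, only the region of ratio 1.85 kept the set ratio without each library in turn. Itm2c, a membrane protein, had 2 of 2 (ratios 2.84 and 3.03), and its stronger region had 44.7 and 32.2 normalized reads in LV against 13.9 and 12.5 in RV. Unc5b, a netrin receptor, had 2 of 12, and Sox4, an HMG-box factor, 2 of 8. The 2 regions of Unc5b lay side by side, at 60917926 to 60918426 and 60918638 to 60919101 of chromosome 10. Others with 2 were Odf1, Colec12, Pald1, Rgs3 and Ipo5. Neither region of Unc5b, Sox4, Odf1, Pald1 or Ipo5 kept the set ratio without each library in turn. Colec12 and Rgs3 kept it at 1 region each. Over all regions of sufficient mean of the gene, median log2 LV over RV was -0.19 at Unc5b and -0.29 at Rgs3. It was 1.17 at Colec12, 0.70 at Pald1 and 1.10 at Ipo5. Of the 485 genes, 175 had no other region of sufficient mean, and 40 also had an RV-higher region. The nearest gene is a label of position and need not be the gene that a region acts on.

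Within 50000 bp of an LV-higher summit lay 552 other regions of sufficient mean, with a median log2 LV over RV of 0.01, the same as over all regions. Within 10000 bp there were 184, with a median of 0.05, and 102 of them (55.4%) had the higher value in LV, against 51.3% of all 9209 regions. Beside RV-higher regions the 138 neighbours within 10000 bp had a median of -0.16, and 53 of them (38.4%) had the higher value in LV. Both sets were measured in the same 4 libraries.

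Peak strength in WT whole ventricles was similar in LV-higher and other regions of like mean. This measure comes from other libraries than the LV and RV values, as fold enrichment of ChIP over background given by the authors' peak caller in the WT list. Its median was 4.65 in LV-higher (quartiles 3.82 to 5.57), 4.69 in RV-higher and 4.78 in all other regions (3.77 to 6.28). At means of 8 to 10 the medians were 4.13, 4.05 and 3.98, at 10 to 15 they were 4.54, 4.69 and 4.43, and at 15 to 30 they were 5.83, 5.87 and 5.66. At 30 or more they were 8.68, 12.1 and 8.45. Median width was 377.5 bp in LV-higher, 393.5 bp in RV-higher and 423 bp in other regions, and at means of 10 to 15 it was 389, 398.5 and 385 bp. Within the 512, LV over RV had a Spearman correlation of -0.02 with fold enrichment, given as a description over n = 512 regions.

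Among the LV-higher regions of highest fold enrichment were those nearest to Unc5b (12.7), Kcnk3, a potassium channel (12.4), Kcnj5, a channel opened by acetylcholine (12.3), Irx2 (12.1) and Dhx37, an RNA helicase (11.6). Others were Myc, a proliferation factor 240647 bp away (10.7), Tiam1, an activator of Rac (10.4), Iqgap3 (10.4), Odf1 (10.4), Itm2c (10.2), Ptprn2 (10.1) and P2rx3, a channel opened by ATP (9.92). Of the regions named so far here, those of Kcnj5, Irx2, Itm2c and Ptprn2 kept the set ratio without each library in turn. Those of Unc5b, Kcnk3, Dhx37, Myc, Tiam1, Iqgap3, Odf1 and P2rx3 did not. Kcnj5 had 48.4 and 48.3 normalized reads in LV against 24.2 and 27.0 in RV, and the ventricles did not overlap. Kcnj5, Dhx37, Iqgap3 and Iba57 (8.34) were among the strongest at gene ends.

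The share of LV-higher regions was highest among shallow regions. Of the 2270 regions with a mean of 8 to 10, 9.34% were LV-higher and 8.06% RV-higher, against 1.87% and 1.41% of the 1067 regions with a mean of 30 or more. Just inside the set ratio lay regions nearest to Rhbdf2 (13.4 in LV and 7.67 in RV), Adgrb1 (12.7 and 7.24) and Prune2 (11.9 and 6.81). Just outside lay Letm1 (10.5 in LV and 5.99 in RV), Elovl6 (13.4 and 7.67) and Slc47a2 (37.5 and 21.5). The median LV over RV of the 512 was 2.04.

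LV-higher regions lay at gene ends less often than other regions did with all 4 libraries, though this did not hold without every library. Of the 512 summits, 72 (14.1%, with 11.3 to 17.3% as 95% Wilson interval) lay no more than 1000 bp off an end of their nearest gene, against 14.7% of RV-higher and 19.8% (19.0 to 20.6%) of all other regions. Deeper inside a gene lay 48.0%, 46.1% and 46.2% of the 3 sets, and outside within 50000 bp 19.9%, 19.3% and 19.5%. Further away lay 92 of 512 (18.0%, 14.9 to 21.5%), 19.9% of RV-higher and 14.5% (13.8 to 15.3%) of other regions. Chosen again without RV library A, 15.15% of LV-higher and 15.01% of other regions lay this far, and without LV library B 15.9% and 14.3%. Exons and introns are not told apart, since the gene table gives only ends. The intervals cover counting error alone, and no test over regions was made.

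**Figure D3:**
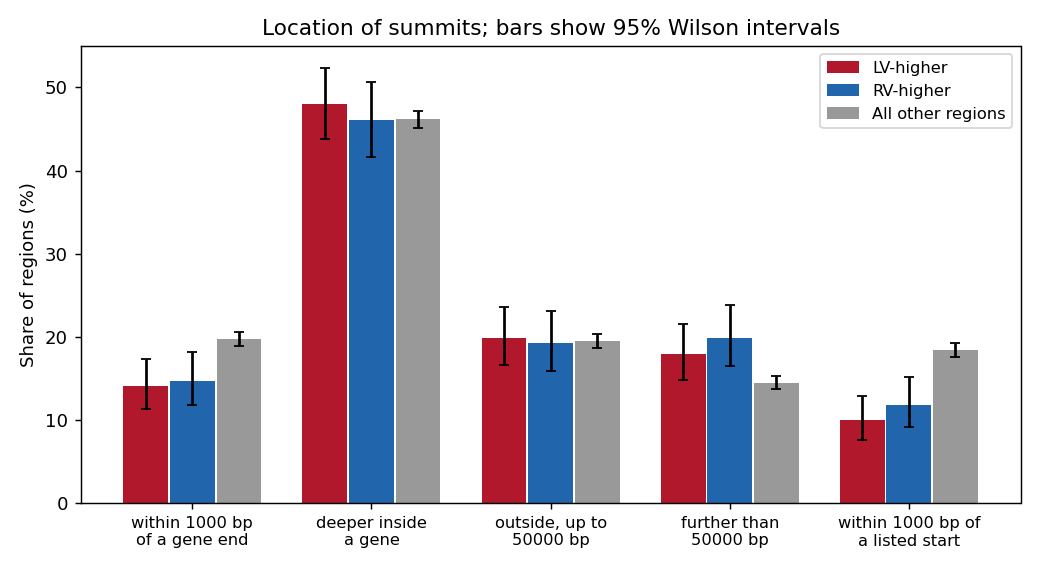
Share of summits by place, in percent, for 512 LV-higher (red), 462 RV-higher (blue) and 8697 other regions (grey), with 95% Wilson intervals; the last place counts again, by listed starts, regions that also belong to the first 4. Gene ends hold 14.1% of LV-higher and 19.8% of other regions, and positions further than 50000 bp 18.0% and 14.5%.

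Measured from gene starts, which the promoter table gives with strand, 50 of 499 LV-higher summits (10.0%, interval 7.68 to 13.0%) were within 1000 bp of a start. The shares were 11.9% in RV-higher and 18.4% (17.6 to 19.3%) in other regions. With the regions chosen again without 1 library, the share at starts was 16.95% against 18.6% of other regions without LV library B, and 16.6% against 17.002% without RV library A. It was 11.3% against 17.7% without LV library A and 10.6% against 19.1% without RV library B. The gap at starts, given by mean below with all 4 libraries, was thus small without LV library B or RV library A. The table lists starts of 17492 of 21900 protein-coding genes, so these shares miss some starts in all 3 sets, that of Tbx5 among them. At means of 8 to 10 they were 10.6%, 14.8% and 20.1%, at 10 to 15 they were 12.1%, 9.30% and 19.4%, and at 15 to 30 they were 6.06%, 11.6% and 18.5%. Promoter windows were touched by 5.81% of LV-higher, 8.72% of RV-higher and 15.1% of other regions.

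**Figure D4:**
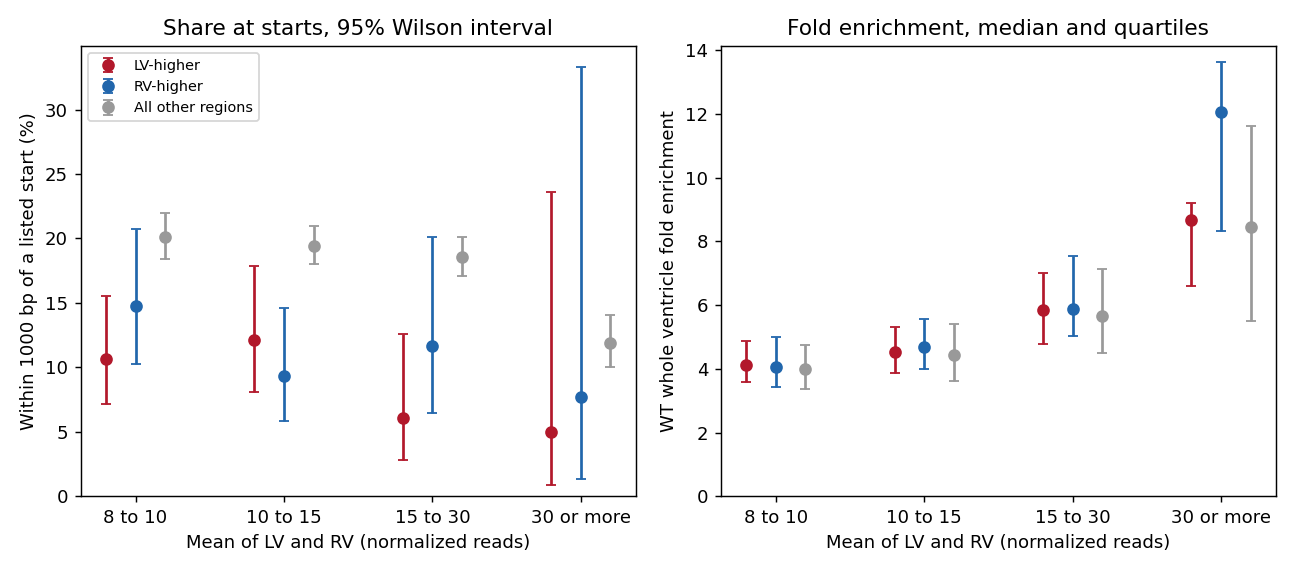
Share of summits within 1000 bp of a listed start (left, percent with 95% Wilson interval) and WT whole ventricle fold enrichment (right, median with quartiles) by mean of LV and RV in normalized reads, for LV-higher (red), RV-higher (blue) and other regions (grey). At means of 8 to 10 the share at starts is 10.6% in LV-higher and 20.1% in other regions, with all 4 libraries, and median fold enrichment is 4.13 and 3.98. Over all means the share at starts without LV library B is 16.95% and 18.6%, and without RV library A 16.6% and 17.002%.

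The libraries themselves differed in how many of their reads lay at gene ends. Over regions of sufficient mean this share was 15.7% and 12.0% in LV libraries A and B, against 15.2% and 12.9% in RV libraries A and B. When the rule was applied again without LV library A it took 995 regions, of which 13.2% were at gene ends, against 19.3% of the other regions. Without LV library B it took 717 (19.0% against 20.3%), without RV library A 792 (19.2% against 18.6%) and without RV library B 635 (14.0% against 20.5%). The lower share at gene ends thus stood without LV library A or RV library B and was near that of other regions without LV library B or RV library A. RV-higher regions chosen again had 20.9% and 11.4% at gene ends without LV libraries A and B. Without RV libraries A and B they had 12.4% and 20.7%. The part of the libraries in these differences was not tested. Among the 176 LV-higher regions that passed the ratio without each library in turn, 10.2% (interval 6.57 to 15.6%) lay at gene ends. Further than 50000 bp from a gene lay 22.2% (16.7 to 28.9%). Among the other 336 these shares were 16.1% (12.5 to 20.4%) and 15.8% (12.3 to 20.1%), so the intervals overlapped. The 176 were chosen with the same 4 libraries, and nothing is read from their shares.

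How firmly a single region stands depends on the libraries as well. In 470 of the 512 (91.8%) both LV libraries lay above both RV libraries. The background was 17.9% over all 17587 regions and 18.3% over those of the minimum mean, and nothing is read from it, since the same values chose the regions. The set ratio was kept by 416 regions without LV library A, 348 without LV library B, 397 without RV library A and 368 without RV library B. It was kept without each in turn by 176 (34.4%), and 122 of the 462 RV-higher regions (26.4%) did the same with RV over LV. Hand1, the Tbx5 region at the gene end, Ptprn2, St18, Tenm4, Irx2, Irx4, Casz1, Ryr2 and both regions of Nkx2-5 and of Itm2c were among the 176. Mycn, Ldb3, Flnc, Tead1, Prdm16, Irx3, Tbx18, Mef2c and the Tbx5 region inside the gene were not. Nor were the regions over the Smad5, Myl4 and Ctbp1 promoters.

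**Figure D5:**
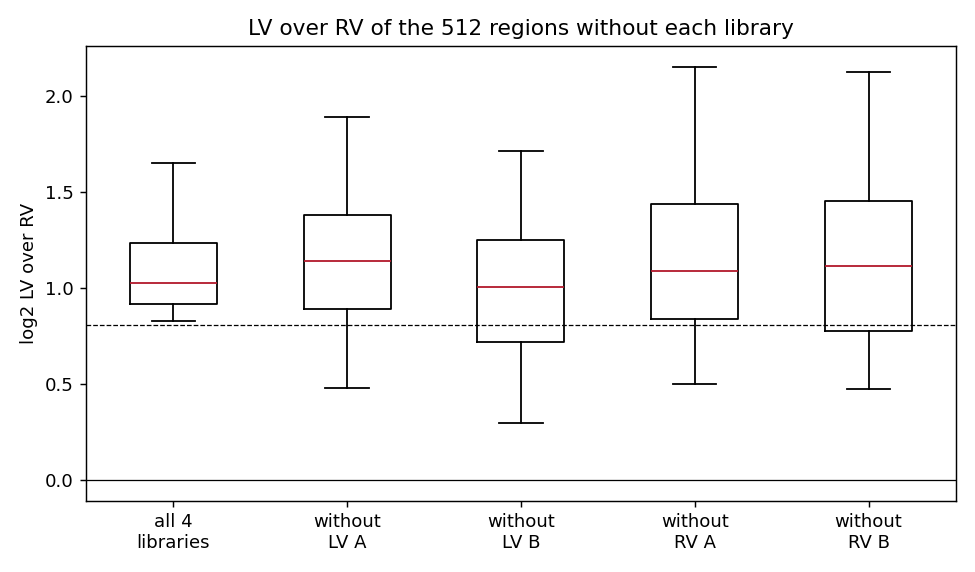
Log2 LV over RV of the 512 LV-higher regions with all 4 libraries and without each library; boxes give quartiles with the median in red, whiskers the 5th and 95th percentiles, and the dashed line the set ratio. The median lies between 1.003 and 1.14, and the lower quartile falls below the dashed line without LV library B (0.72) and without RV library B (0.77).

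The labels and headers do not say which test the authors ran. By the authors' deposited table, 0 of the 512 had an adjusted p under 0.05, as had 0 of all 17587 regions, a background of 0%. At an unadjusted p under 0.05 the authors' deposited table had 48 of 512, against a background, higher in LV, of 0.341% over all regions and 0.521% over those of the minimum mean. With limma on log2 of normalized reads plus 1, fitted over all 17587 regions with n = 2 pools per ventricle, 5 of 512 had an adjusted p under 0.05 (background 0.0284%). They were Ptprn2 (log2 LV over RV 2.45, SE 0.350, limma adjusted p = 0.00126), Cxcl12 (3.95, SE 0.657, 0.0101), Tbx5 at the gene end (2.21, SE 0.402, 0.0186), Hand1 (2.14, SE 0.388, 0.0186) and St18 (2.03, SE 0.369, 0.0186). At an unadjusted limma p under 0.05 there were 341 of 512 (background 3.13% over all regions and 4.15% over those of the minimum mean). The median SE of log2 LV over RV was 0.464 in the 512, beside a median difference of 1.001. Because the rule chose the regions on this contrast, none of these counts adds to it. limma called 15 of the 512 when LV library A was left out and 12 when LV library B was. It called 0 with either RV library left out.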

How the data were processed

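The deposited table and peak lists were used as the authors made them. The submitters' processing notes list GRCm38 and mm10 as builds and, without saying what each did, HOMER, DESeq2, MACS2 2.1.1.20160309 and BWA 0.7.12-r1039. Pooling of replicates, the test behind the p-values and whole-library depth are not stated there or in the labels.

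The columns LV and RV hold, per the file headers, a signal per ventricle, pvalue and qvalue a p-value and adjusted p-value, and log2FC a log2 ratio, which equals log2 of RV over LV; ratios here are LV over RV. The deposited peak lists hold a score, a fold enrichment (ratio of ChIP to background) and -log10 q. Each LV or RV value was the average over libraries of reads, scaled by one factor each, with 0.5 added, with 1 solution in 100% of regions (largest residual 7.7e-12, tolerance 1e-07). These reads gave values per library; which library is replicate 1 or 2 is unknown.

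Regions were assigned by summit to the nearest of 21900 protein-coding genes of RefSeq GRCm38.p6, with ends but no strand; starts came from a promoter table with 32851 windows. Sequences of regions away from promoters were not analysed here. limma 3.58.1 (R 4.3.3) used log2 of normalized reads plus 1, a mean-variance trend and Benjamini-Hochberg adjustment over all regions; it and the read recovery were tested on simulated data. Other steps ran in Python 3.11.15 (scipy 1.17.1, pandas 2.3.3, numpy 2.4.6, figures with matplotlib 3.10.9).

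The regions, the 16 gene lists (340 of 341 genes found by symbol) and the rules were chosen with earlier results of these data known. Genes named are those of highest fold enrichment, largest ratio, in the lists, at gene ends, with several regions, nearest to the threshold, or with the largest gap between LV libraries; Gja1, Ctbp1, Smad5 and Myl4 were named for their promoters. Some regions that this choice covers are not reported here. Replicates are pools of tissue, and limma p-values rest on the spread between pools, drawn towards a trend over all regions. At Mycn, with 604 and 36.6 normalized reads in LV, the limma SE was 0.626. What spread the authors' p-values measure is not stated. Alternatives were other ratios, means, windows, pseudocounts and scalings, and leaving out each library.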

Additional observations from a re-analysis of the deposited data

How the results depend on the processing

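The number of LV-higher regions followed its thresholds: 1040 at a ratio of 1.5, 285 at 2, 1274 at a minimum mean of 4 and 104 at 16. With the constant of 0.5 taken off it was 558, and keeping regions with a knockout peak, or barring one within 1000 bp, left 512. Without 1 library it was 635 to 995. Median fold enrichment was 3.93 at a minimum mean of 4, 6.36 at 16 and 4.22 to 4.71 without 1 library. Median width was 359 bp at a ratio of 2, 267.5 bp at a minimum mean of 4, 572 bp at 16 and 326 to 397.5 bp without 1 library. A higher minimum mean leaves deeper regions by construction. The share at gene ends was 10.2% with a window of 500 bp, 10.0% by listed starts (an alternative added after the data were seen, as were the bins of the mean and the lists without each library) and 13.2 to 19.2% without 1 library; the cause was not tested. Midpoints in place of summits left 485 nearest genes, the same gene for 511 of 512 regions.

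limma called 1 of the 512 at a pseudocount of 0.1, 9 at 5, 6 over regions of mean 8 or more, 5 with library totals as scaling, and 0 to 15 without 1 library, where the lone library of a ventricle is assumed to vary like the other. Log2 LV over RV was -0.52 to 3.50 at Mycn without 1 library, negative without LV library A, and -0.26 to 1.48 at the region inside Tbx5, negative without LV library B. Of 80 named regions, 33 kept the ratio without each library in turn. No paired analysis was possible because the LV and RV columns carry no replicate numbers. Depth limits all of this: the median region rests on 42 reads.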

Other observations

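LV-higher regions were spread over the chromosomes. Chromosome 1 had 49 of its 678 regions of sufficient mean LV-higher (7.23%) and chromosome 12 had 29 of 390 (7.44%), beside 38 and 14 RV-higher regions there. Chromosome 3 had the lowest share of the autosomes after chromosome 18, with 19 of 504 (3.77%) and 26 RV-higher. On the X chromosome 5 of 93 were LV-higher. No LV-higher region lay over a miRNA hairpin of the RefSeq table (0 of 512).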
